A study of Mus musculus with 15 samples.

Results

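The mouse miRNA miR-335 was measured as its 2 mature arms, mmu-miR-335-5p and mmu-miR-335-3p, which are 2 of the 584 miRNA assays on the cards. The members were taken by assay name, and the cards held no other assay of miR-335. MiR-335 was selected on the threshold cycle (Ct) values of untreated αTC1-6 and βTC1 at 24 h, where both arms had a Ct in the former line and none in the latter in the normalized table, so that contrast is described here without a test. The study profiled miRNAs of 2 mouse pancreatic endocrine tumor lines by TaqMan low density arrays, a card-based quantitative real-time PCR. αTC1-6 is a glucagon-producing α cell line and βTC1 an insulin-producing β cell line, each of them a single line between passages 20 and 40. There were 5 conditions with 3 samples each: αTC1-6 left untreated for 24 h, αTC1-6 treated for 24 h with a cocktail of IL1b at 50 IU/ml, IFNg at 1000 IU/ml and TNFa at 1000 IU/ml, αTC1-6 left untreated for 48 h, αTC1-6 treated with the same cocktail for 48 h, and βTC1 left untreated for 24 h. No βTC1 sample was treated, and no βTC1 sample was taken at 48 h. The 12 αTC1-6 samples therefore carry the cytokine and time comparisons.

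MiR-335 is processed from a hairpin inside Mest (also called Peg1), an imprinted gene that is transcribed from the paternal allele and is active in embryonic and mesodermal tissue. The 2 strands of the hairpin stem give the 5p and the 3p arm, and each arm recognizes target mRNAs mainly through its seed. MiR-335 is known as a regulator of cell migration in tumors, and in rat islets its level has been linked to genes of insulin exocytosis.

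The mature sequences are shown because the 2 arms come from 1 transcript and were read by separate assays. They were taken from RefSeq (GRCm38.p6), written 5′ to 3′ with the seed, bases 2 to 8, in capitals.
miR-335-5p: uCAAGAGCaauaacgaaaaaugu
miR-335-3p: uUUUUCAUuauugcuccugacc
The 5p arm of 23 bases lies at chr6:30741314-30741336 and the 3p arm of 22 bases at chr6:30741354-30741375, both on the plus strand, with 17 bases between them. The hairpin, of 98 bases, lies at chr6:30741299-30741396 within Mest, which spans chr6:30733506-30748466 on the same strand. It starts 7.79 kb after the start of Mest and ends 7.07 kb before the end of Mest. The exon and intron structure of Mest was not analysed here. The seeds of the 2 arms differ from each other, and among 1738 mature mouse miRNAs in the table each seed was held by the arm itself alone. The 5p arm has 12 A and 4 U bases, while the 3p arm has 3 A and 11 U bases, and their GC content is 30.4% and 36.4%.

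A Ct is the PCR cycle at which a signal crosses the threshold, so a lower Ct means more miRNA and 1 cycle is 1 unit on the log2 scale if the assay doubles its product at each cycle. ΔCt is the Ct minus that of miR-26a in the same sample, and the Ct of miR-26a averaged between 17.88 and 18.26 in the 5 groups. The normalized table holds ΔCt only. A Ct given from it is that ΔCt plus the miR-26a Ct of the non-normalized table. Both arms are on card A of the 2 cards. Card A wells, control assays included, that lost a Ct of the non-normalized table and became undetermined in the normalized one numbered 60 to 86 in each sample taken at 24 h and 0 to 1 in those taken at 48 h. MiR-375, a defining miRNA of islet endocrine cells, was at a mean ΔCt of -3.17 in untreated αTC1-6 and -4.24 in βTC1 at 24 h. The 3 markers of acinar cells, miR-216a, miR-216b and miR-217, were undetermined in all 3 untreated αTC1-6 samples at 24 h but gave a Ct in each of the 3 βTC1 samples, with a summed level of 2.61% to 9.79% of miR-26a. Their part in the comparison of the lines was not tested. MiR-146a, a miRNA induced by inflammatory signals, was higher after 48 h of cytokines by 3.82 on the log2 scale (SE 0.268, limma adjusted p = 0.00458, or 0.0740 with the replicate number as a block), and the difference at 24 h was 3.30 (SE 0.485, limma adjusted p = 0.0985).

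In untreated αTC1-6 at 24 h both arms of miR-335 were well within the measurable range and had nearly the same mean ΔCt. The 2 assays may differ in efficiency, so this is not read as an equal level. For miR-335-5p, the Ct in the normalized table was 22.33, 22.51 and 22.38, which is a ΔCt of 3.34, 4.96 and 4.70. For miR-335-3p, the Ct was 22.98, 21.98 and 21.95, with a ΔCt of 3.997, 4.433 and 4.265. The mean ΔCt was 4.33 ± 0.867 (SD, n = 3) for 5p and 4.23 ± 0.220 (SD, n = 3) for 3p. Taken as 2 to the power of minus ΔCt, these means are 4.96% and 5.32% of the level of miR-26a. The arms overlapped, and the spread of 5p came mainly from the first sample, in which miR-26a itself had its highest Ct of the group, 18.98.

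In the normalized table all 6 βTC1 wells of miR-335 were undetermined. The non-normalized table gives most of the same wells a Ct. For miR-335-3p the βTC1 samples read 26.12, 25.76 and 27.63 there, at a mean ΔCt of 8.29 ± 1.61 (SD, n = 3). All 3 lay above the αTC1-6 samples, and the ΔCt exceeded the mean of the untreated αTC1-6 samples at 24 h by 4.11 cycles in that table. For miR-335-5p βTC1 sample 1 was undetermined, sample 2 read 36.77 and sample 3 read 16.82. The reading of sample 3 is a lower Ct than in any αTC1-6 sample, and that of sample 2 is higher than in all of them. With undetermined wells placed at a Ct of 40, as the normalized table does, the lines differed by 17.45 cycles of ΔCt for 5p and 17.55 for 3p. These 2 values are set by the placement at 40 and are not measured fold changes. The size of the α to β difference of miR-335 therefore differs between the 2 deposited tables. In the non-normalized table all 3 βTC1 samples were lower in level than αTC1-6 for 3p, whereas for 5p sample 3, at a ΔCt of -0.72, was higher than every αTC1-6 sample. The choice of the members used this contrast, so no test was run on it.

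Other wells of card A were treated in the same way. In the 3 βTC1 samples, 64, 68 and 69 card A miRNA wells, control assays left out, lost their Ct between the non-normalized and the normalized table, and the lost values had a median of 28.6, 26.7 and 27.6 cycles. For the 3p arm, 14, 24 and 34 of those wells had a lower Ct, so that it was below the median of the set in samples 1 and 2 and at it in sample 3. For the 5p arm, 66 of 68 wells had a lower Ct in sample 2 and 5 of 69 in sample 3. The plant miRNA ath-miR159a, a negative control with no counterpart in mouse, had a Ct of 30.8 and 17.1 in βTC1 samples 1 and 2 and none in sample 3. Over the series this control had a Ct in 11 of 15 samples, from 16.3 to 33.0. The 3p reading in βTC1 thus lay below the plant control in sample 1 and above it in sample 2. Sample 3 had no Ct of the plant control to compare with.

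**Figure D1:**
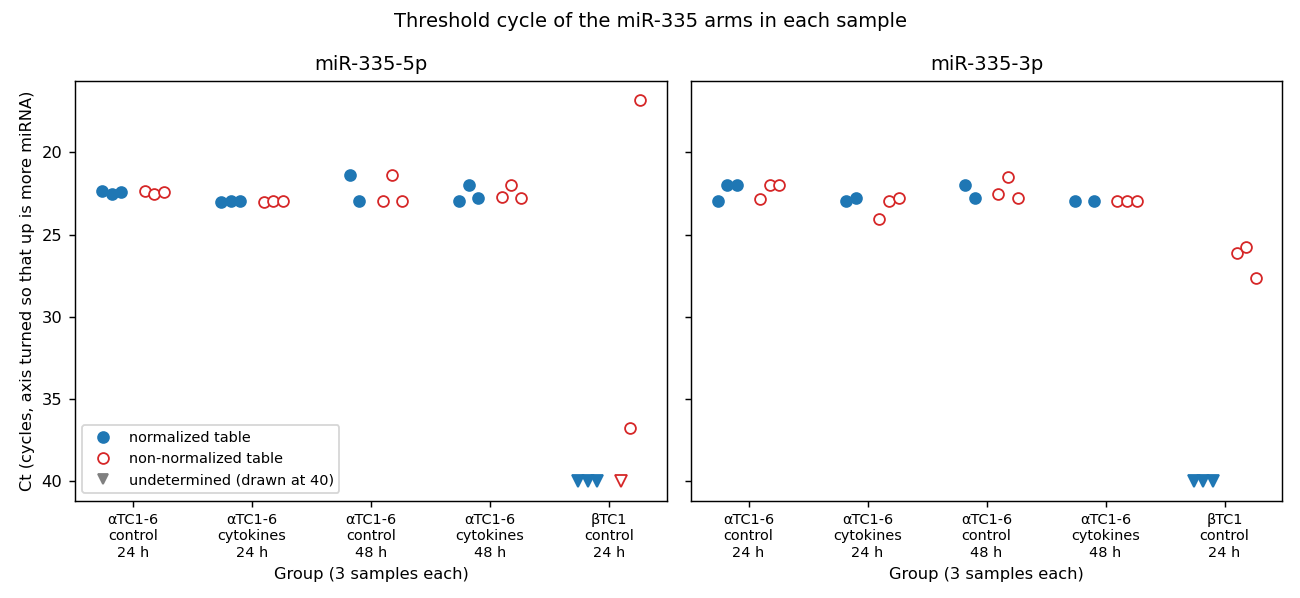
Ct of miR-335-5p (left) and miR-335-3p (right) in each sample of the 5 groups, with the vertical axis in cycles and turned so that more miRNA is up. Filled points are the normalized table, open points the non-normalized table and triangles undetermined wells drawn at 40. αTC1-6 samples lie between 21.38 and 24.02, while in βTC1 the 2 tables differ and the 5p readings are 36.77 and 16.82.

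By the rule of a Ct in all 3 untreated αTC1-6 samples and in no βTC1 sample at 24 h, 18 of 584 assays (3.08%) were called in the normalized table, and both arms of miR-335 are among them by choice. Within these 18 assays, miR-335-3p had the lowest mean ΔCt and miR-335-5p the next lowest, followed by miR-467c at 4.96. The last of the 18, miR-380-3p, was at 13.61. Of 143 hairpins with both arms on the cards, miR-335 alone had both arms in this class, and 8 had 1 arm in it. In the non-normalized table, 11 of the 18 assays read a Ct in each of the 3 βTC1 samples and 5 read none. MiR-335-3p was in the former group, and miR-335-5p was the only assay with a Ct in 2. Under the same rule the non-normalized table called 10 of 584 assays (1.71%), and neither arm of miR-335 was among them.

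**Figure D2:**
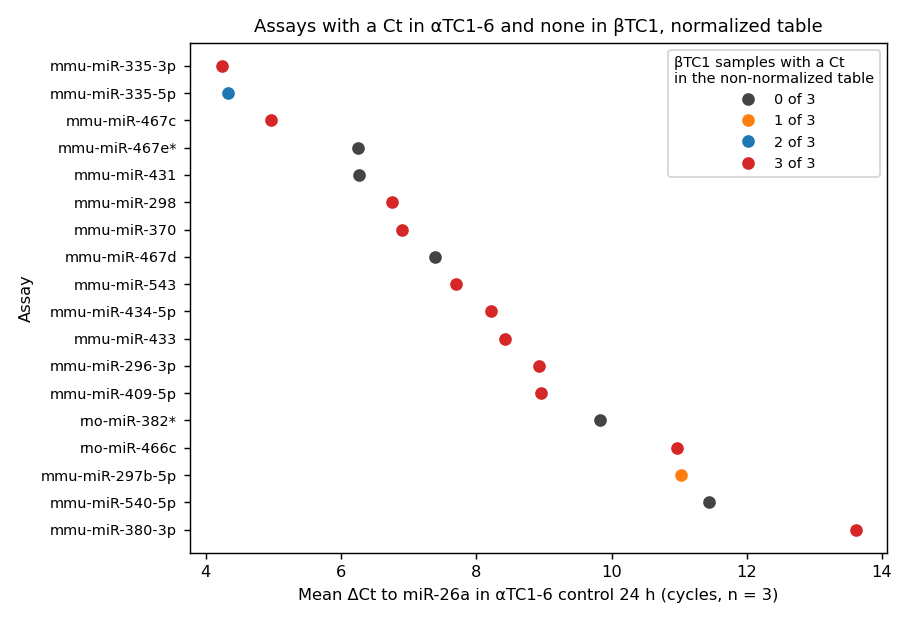
Mean ΔCt to miR-26a in untreated αTC1-6 at 24 h (horizontal axis, cycles, n = 3) for the 18 assays with no Ct in βTC1 in the normalized table (vertical axis), colored by the number of βTC1 samples with a Ct in the non-normalized table. The miR-335 arms are at the top with 4.23 and 4.33, and 11 of the 18 assays, miR-335-3p included, have a Ct in all 3 βTC1 samples there.

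Whether inflammatory cytokines changed miR-335 in α cells was asked at 24 h and 48 h, on samples that the choice of members did not use other than the untreated group at 24 h. Neither arm passed the test at either time. After 24 h of cytokines, miR-335-5p had a ΔCt of 4.105, 5.006 and 5.0004, against 3.34, 4.96 and 4.70 in the controls. The ranges overlapped, and the level differed by -0.37 on the log2 scale (SE 0.577, 95% confidence interval -1.82 to 1.08, limma adjusted p = 0.963). In an exact two-sided permutation test the difference had p = 0.5, with 0.1 as the smallest value that 3 samples against 3 allow. Without normalization the groups did not overlap, with a Ct of 22.98, 22.97 and 22.96 under cytokines against 22.33, 22.51 and 22.38 in the controls, and the exact permutation p was 0.1. Of 372 assays, 9.41% were likewise lower under cytokines with no overlap on that scale. The direction of the ΔCt difference rested on the first control sample, without which it was 0.12.

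MiR-335-3p after 24 h of cytokines had a ΔCt of 4.996 and 4.825 in samples 2 and 3, and its well in sample 1 was blank in the normalized table. All values lay above the controls, which were at 3.997, 4.433 and 4.265. The level differed by -0.68 on the log2 scale (SE 0.381, 95% confidence interval -1.70 to 0.34, limma adjusted p = 0.963, exact permutation p = 0.2). In the non-normalized table, which has a Ct of 24.02 for the blank well, the 3 cytokine samples were at a ΔCt of 5.144, 4.996 and 4.825 and the controls at 3.84, 4.433 and 4.265. The difference was then -0.81 and the exact permutation p 0.1, again the smallest possible. Such a separation toward lower levels was seen for 8.06% of 372 assays in the normalized table and for 6.34% of 410 in the non-normalized one. The 372 include assays with 3 samples in each group, where full separation is harder to reach than with 3 against 2. By limma, 0 of the 2 arms passed at 24 h, at the adjusted or at an unadjusted threshold of 0.05, and among all assays 1 of 445 did (0.225%), or 20 at the unadjusted threshold (4.49%). With the replicate number as a block, the 24 h count over all assays was 0. The median difference over these assays was -0.15 on the log2 scale, and 165 of them had a larger change in size than miR-335-3p.

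After 48 h of cytokines neither arm passed the test, and the value of miR-335-3p depended on the table used. For miR-335-5p, ΔCt was 4.47, 4.24 and 5.32 under cytokines and 4.401 and 5.005 in controls 2 and 3, the well of control 1 being blank. The difference was 0.03 (SE 0.516, 95% confidence interval -1.39 to 1.45, limma adjusted p = 0.987), and the cytokine samples spanned the controls on both sides. For miR-335-3p, ΔCt was 4.45 and 5.52 in cytokine samples 1 and 3 and 5.004 and 4.798 in controls 2 and 3, and the remaining wells were blank. The difference was -0.09 (SE 0.588, 95% confidence interval -1.93 to 1.76, limma adjusted p = 0.964). With the Ct that the non-normalized table gives for the blank wells, miR-335-3p was at 4.45, 5.27 and 5.52 under cytokines and at 3.55, 4.53 and 4.798 in the controls, overlapping in 1 cytokine sample, and the difference was -0.79 (exact permutation p = 0.3). Without normalization it was -0.59 in the normalized table. Samples of the same number deviated together in both cytokine comparisons, and within these pairs of the non-normalized table the ΔCt of miR-335-3p was higher under cytokines in 3 of 3 pairs at 48 h, by 0.91, 0.74 and 0.72 cycles, and in 3 of 3 at 24 h, by 1.30, 0.56 and 0.56. Of all assays with a Ct in every sample compared there, 55.3% were lower in level in all 3 pairs at 48 h and 26.8% at 24 h. The exact sign-flip permutation p was 0.25 at each time, the smallest that 3 pairs allow. A limma fit of that table with the replicate block gave -0.79 at 48 h with an unadjusted p of 0.0218 and an adjusted p of 0.239, and 118 of 529 assays were under the unadjusted threshold in that fit. MiR-335-5p differed by -0.12 in that table, and its ΔCt was higher under cytokines in 2 of 3 pairs at 48 h and in 3 of 3 at 24 h. In the normalized table without a block, 0 of the 2 arms passed by limma, also at the unadjusted threshold, against 3 of 534 assays (0.562%) and 60 (11.2%) at the unadjusted one. With the replicate block, 0 assays passed at 48 h. Of the 534 assays, 526 had a larger change in size than miR-335-5p and 509 than miR-335-3p, and the median over all was -0.51.

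Untreated αTC1-6 at 48 h were compared with those at 24 h to see how far the arms vary with time in culture. The labels name no batch for either time, so a batch and time cannot be told apart here. The choice of members used the untreated group at 24 h, which is the baseline here and part of the difference of cytokine effects below. How far that choice bears on a fall from this baseline was not tested. MiR-335-5p differed by -0.37 (SE 0.664, 95% confidence interval -2.15 to 1.41, limma adjusted p = 0.919). MiR-335-3p differed by -0.67 (SE 0.377, 95% confidence interval -1.68 to 0.34, limma adjusted p = 0.764). Its 2 measured samples at 48 h lay above the 3 at 24 h in ΔCt, and 4.35% of 391 assays were separated in this direction. These 391 include assays with 3 samples in each group, where full separation is harder to reach. In the non-normalized table the well left blank had a ΔCt of 3.55, lower than in every sample at 24 h, and the difference of miR-335-3p was -0.11 with overlapping groups. Neither arm passed at the adjusted or the unadjusted threshold by limma, whereas 29 of 489 assays did at the adjusted one (5.93%) and 43 (8.79%) at the unadjusted one. The count of 29 depended on the undetermined wells. It was 2 of 455 with these wells as missing and 1 of 361 among assays with a Ct in every sample. In the non-normalized table it was 2 of 520. The cytokine effect at 48 h minus that at 24 h was 0.40 for 5p (SE 0.797, 95% confidence interval -1.42 to 2.22) and 0.59 for 3p (SE 0.628, 95% confidence interval -0.92 to 2.11), both at a limma adjusted p of 0.992. The background for this test was 1 of 477 assays (0.21%), or 19 (3.98%) unadjusted. The 95% intervals of both arms include a fall of 1 cycle in both cytokine comparisons and between the control times. Those of miR-335-3p at 24 h and between the control times do not reach a rise of 1 cycle. These intervals leave out the blank wells. With the blank well filled, the difference of miR-335-3p between the control times was -0.11, and its interval is not given here.

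**Figure D3:**
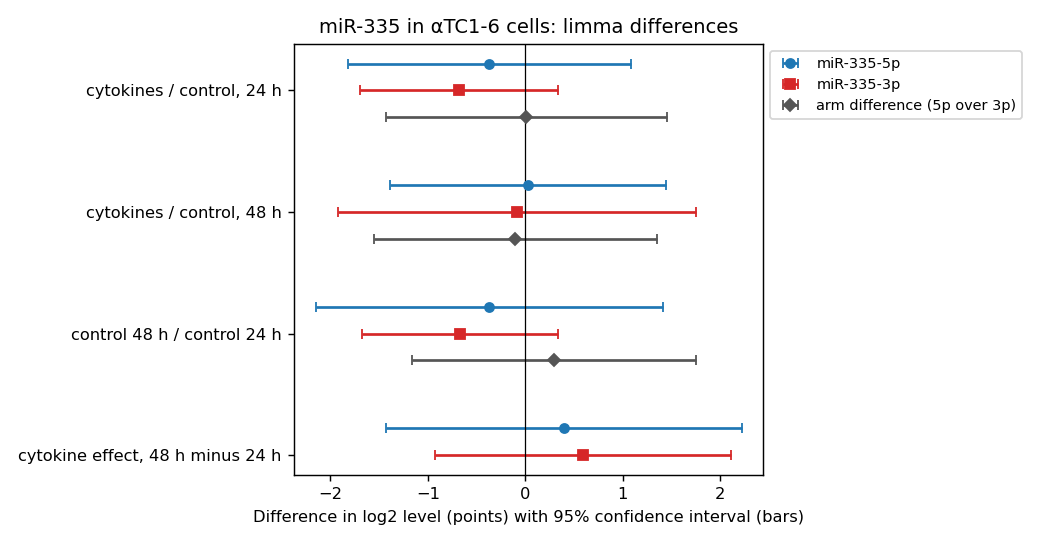
Differences in log2 level (horizontal axis) of miR-335-5p, miR-335-3p and the arm difference in the comparisons within αTC1-6 (vertical axis), with points for the limma estimate and bars for its 95% confidence interval. All intervals include 0, and the estimates for the arms run from -0.68 to 0.59.

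Since both arms arise from 1 hairpin, the Ct of 3p minus that of 5p was followed through the samples. This arm difference is the log2 ratio of 5p over 3p and needs no reference miRNA, but the assays may differ in efficiency, so it is compared between samples and not read as a molar ratio. In the controls at 24 h it was 0.65, -0.53 and -0.43 cycles. In the cytokine samples at 24 h it was -0.01 and -0.18 in samples 2 and 3. At 48 h it was 0.60 and -0.21 in controls 2 and 3 and -0.01 and 0.20 in cytokine samples 1 and 3. Over the 9 αTC1-6 samples with both arms in the normalized table, the mean was 0.01 ± 0.414 cycles (SD, n = 9), with 3p lower in level than 5p in 3 samples. The ratio of 5p over 3p ran from 0.694 to 1.57.

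No comparison changed the arm difference beyond the spread between samples. Cytokines at 24 h moved it by 0.01 cycles (SE 0.594, 95% confidence interval -1.43 to 1.45, limma adjusted p = 0.992). At 48 h they moved it by -0.10 cycles (SE 0.510, 95% confidence interval -1.56 to 1.35, limma adjusted p = 0.926). Controls at 48 h stood 0.30 cycles from those at 24 h (SE 0.580, 95% confidence interval -1.16 to 1.76, limma adjusted p = 0.993). By limma, the arm difference of 0 of 83 hairpins passed at 24 h (0%), with 2 at the unadjusted threshold. At 48 h it passed for 0 of 92 (0%), with 12 unadjusted, and between the control times for 0 of 86 (0%), with 2 unadjusted. In the non-normalized table the 3 controls at 48 h were at -0.45, 0.12 and -0.21 cycles and the 3 cytokine samples at 0.25, 1.03 and 0.20. These groups did not overlap, with a difference of 0.67 cycles (exact permutation p = 0.1), and 20% of 90 hairpins did not overlap in either direction in that comparison. In βTC1 the same table gives arm differences of -11.01 and 10.82 cycles in samples 2 and 3, opposite in sign, against a range of -0.53 to 1.04 over the 12 αTC1-6 samples.

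**Figure D4:**
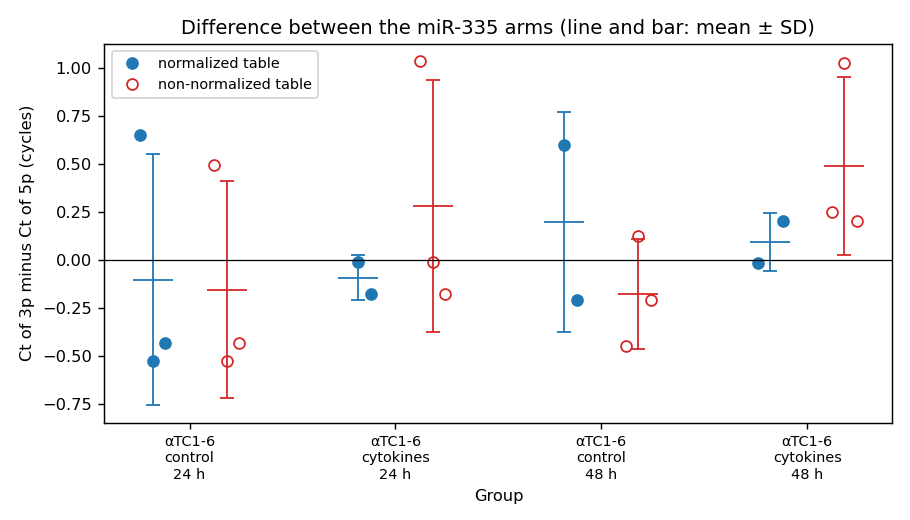
Ct of miR-335-3p minus Ct of miR-335-5p in cycles (vertical axis) in each αTC1-6 sample by group, filled for the normalized and open for the non-normalized table, with lines and bars for the mean ± SD. The samples lie within -0.53 to 0.65 in the normalized table, and the highest open points, 1.04 and 1.03, are cytokine samples whose 3p well is blank there.

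The Ct difference between the arms was also set beside that of other hairpins. Of the 143 hairpins with both arms assayed, 81 had a Ct for both in all 3 controls at 24 h, and 3 of them had a smaller mean arm difference than the 0.102 cycles of miR-335. The median size was 3.04 cycles and the largest 11.96. The small mean of miR-335 came from values of opposite sign, since without sample 1 it was 0.480 cycles, with 7 of 81 hairpins smaller, and the mean of the sizes in the 3 samples was 0.538 cycles, again with 7 smaller. The hairpins nearest to miR-335 were miR-485 at 0.067, miR-376b at 0.148 and miR-325 at 0.158 cycles. The SD of the arm difference over αTC1-6 samples was 0.414 cycles for miR-335 and 0.736 for the median hairpin, and it was smaller in 10 of 81. That value of miR-335 rests on 9 samples. Over all 12 samples of the non-normalized table its SD was 0.530 cycles, and 20 of 82 hairpins had a smaller one. For miR-485 the SD was 2.14 cycles. The order of hairpins is a description, because each pair of assays has its own efficiency. Both arms of miR-335 are on card A, whereas some other hairpins have an arm on card B, such as miR-467e*. The part of the cards in the arm differences and their SD was not tested.

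**Figure D5:**
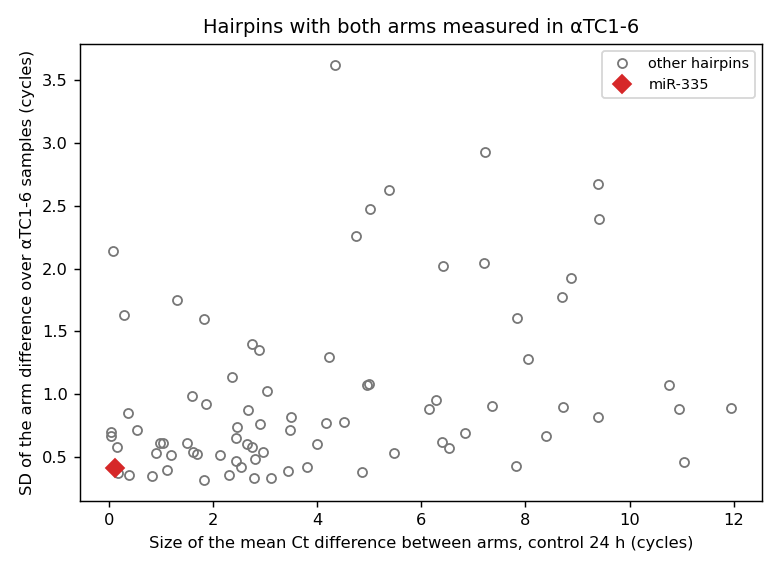
Size of the mean Ct difference between the 2 arms in untreated αTC1-6 at 24 h (horizontal axis, cycles) against the SD of that difference over αTC1-6 samples (vertical axis, cycles) for 81 hairpins. MiR-335, the diamond, sits at 0.102 and 0.414 cycles, near the lower left of the cloud. Both of its arms are on card A, whereas some other hairpins have an arm on card B.

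Over all αTC1-6 samples the spread of 5p was close to that of the typical card A assay, and that of 3p was smaller only with its blank wells left out. MiR-335-5p ranged in ΔCt from 3.34 to 5.32 with a median of 4.70 over 11 samples, and its SD was 0.561 cycles. MiR-335-3p ranged from 3.997 to 5.52 with a median of 4.798 over 9 samples, and its SD was 0.460 cycles. Among 245 card A assays with a Ct in at least 9 of these samples, the median SD was 0.622 cycles, and 98 were steadier than 5p and 38 steadier than 3p. In the same set, 62 assays had a lower mean ΔCt than 5p and 67 a lower one than 3p. With the blank wells filled from the non-normalized table, the SD of 3p rose to 0.577 cycles and 100 of 252 card A assays were steadier, close to the 97 for 5p.

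The Ct values themselves were unevenly spread. In the non-normalized table, 12 of the 24 miR-335 values in αTC1-6 had a fractional part of 0.9 or more, 6 for each arm, and over card A the share was 39.0% of 4904 values, where an even spread gives 10%. The 3 cytokine samples at 24 h had 5p values between 22.96 and 22.98, and the 3 at 48 h had 3p values between 22.94 and 22.98. The part of this clustering in the small SD of these groups, 0.0112 and 0.0171 cycles, was not tested.

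In the normalized table, the presence of a Ct in αTC1-6 alone was not shared by the miRNAs encoded near miR-335 on chromosome 6. The nearest on the centromeric side are miR-182, miR-96 and miR-183, a cluster expressed in sensory and endocrine cells that lies about 575.4 to 571.6 kb before miR-335. On the other side miR-29a and miR-29b, which act on collagen and other matrix mRNAs, lie 321.4 and 321.7 kb after it. The list reaches as far as miR-592, 2804.6 kb before miR-335, and miR-490, 5680.4 kb after it. Whether the miR-29b and miR-129 assays read the chromosome 6 loci Mir29b-1 and Mir129-1 alone was not determined. Of 12 neighbor assays, 11 had a Ct in all 3 untreated αTC1-6 samples at 24 h and 9 in all 3 βTC1 samples, and miR-490 had none in either. In αTC1-6, miR-96 was at a mean ΔCt of 8.92 ± 1.19 (SD, n = 3), and the βTC1 mean was 6.54 ± 0.289 (SD, n = 3). MiR-29a was at -1.59 ± 0.474 (SD, n = 3) and 0.70 ± 0.631 (SD, n = 3). The mean ΔCt of all miR-29a and miR-29b assays was higher in βTC1, which is a lower level there. For the assays of miR-182, miR-96, miR-183, miR-129 and miR-592 it was lower in βTC1. Under cytokines, 0 of 11 neighbor assays passed by limma at 24 h and 0 of 12 at 48 h, and 0 did at the unadjusted threshold either, with medians of -0.15 and -0.56 beside -0.15 and -0.51 over all assays. Between the control times 1 of 12 passed, miR-490, which was undetermined in every sample at 24 h.

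Other imprinted loci with a single host gene were looked at beside Mest, and 6 of their 7 miRNAs were on the cards. MiR-298 and miR-296-3p, from the imprinted Gnas region, were the only others of these that had a Ct in all 3 untreated αTC1-6 samples and in no βTC1 sample at 24 h in the normalized table. MiR-298 was at a mean ΔCt of 6.75 and miR-296-3p at 8.93 in those αTC1-6 samples, lower in level than the miR-335 arms if the assays are alike, and each also had a Ct in all 3 βTC1 samples in the non-normalized table. MiR-483*, from an intron of Igf2, was measured in both lines, at 8.19 in αTC1-6 and 3.95 in βTC1. MiR-675-3p, from H19, was undetermined in both at 24 h. Under cytokines 0 of 4 tested assays of this list passed at 24 h and 0 of 5 at 48 h by limma, against 1 and 2 at the unadjusted threshold, where 4.49% and 11.2% of all assays were. The medians of the list were -1.23 and -0.41, beside -0.15 and -0.51 over all assays. At 48 h miR-298 differed by -3.19 (SE 0.439, limma adjusted p = 0.0610), whereas the miR-335 arms were at 0.03 and -0.09.

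The assays whose ΔCt followed each arm most closely over the αTC1-6 samples were also listed. For miR-335-5p, over 11 samples and 310 candidate assays with a Ct in all 12 samples, these were miR-410 with a Pearson r of 0.809, miR-30c with 0.798, miR-489 with 0.798, miR-29c with 0.796 and miR-195 with 0.783. For miR-335-3p, over 9 samples, they were rno-miR-23a* with 0.979, miR-28 with 0.972, miR-345-3p with 0.926, miR-350 with 0.921 and miR-331-3p with 0.909. The 2 lists had no assay in common. All these values share the subtraction of the same miR-26a Ct, and the median r over the candidates was 0.297 for 5p and 0.402 for 3p. With each sample centered on its median Ct in place of miR-26a, 3 of the 5 remained for each arm, and the median r was -0.057 and -0.052. The 2 arms correlated with each other at r = 0.708 over 9 samples relative to miR-26a and at 0.224 with median centering.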

How the data were processed

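MiRNAs were measured in 180 ng of total RNA per sample by Megaplex reverse transcription, preamplification and TaqMan Rodent cards A and B. The authors quantified the cards with Real-Time StatMiner. The non-normalized table was deposited as Ct in cycles. The normalized table was deposited as ΔCt on the log2 scale, for which the authors took miR-26a of each sample as the reference, with undetermined wells at 40 and some wells blank. The methods name several reference genes, while the deposited ΔCt is relative to miR-26a alone. A further deposited table holds the authors' fold changes, which were not used. For miR-335-5p and miR-335-3p, 1 and 3 of 15 wells were blank in the normalized table, and where both tables had a Ct, 1 and 2 wells differed by over 0.01 cycle, by at most 0.262 and 0.479.

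Groups and replicate numbers were taken from the sample titles. Minus ΔCt was compared with limma 3.58.1 (R 4.3.3) within the samples of each comparison, with p-values adjusted card by card (Benjamini-Hochberg) and a threshold of 0.05. Blank wells were left out of the fits, so the miR-335-3p fits rest on 5 samples at 24 h and 4 at 48 h. The arm difference was fitted the same way over hairpins, with blank samples dropped. Exact two-sided permutation tests of the members and their arm difference used scipy 1.17.1. The fits were tested on simulated data. The replicates are described as independent, and p-values measure the spread between these samples only. Ct has no count depth, and the number of samples limits the precision. Same-numbered samples deviated together in both cytokine comparisons (r from 0.276 to 0.476 at 24 h and from 0.259 to 0.443 at 48 h over 278 assays), but not between the control times, where r ran from -0.045 to 0.238.

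Named assays were the 2 members, miR-26a, miR-146a, lists of chromosome 6 neighbors, of imprinted single-host loci and of cell type markers, the 5 assays most alike to each arm and the 3 hairpins nearest in arm difference. MiR-467c, miR-380-3p and the plant control were chosen for mention once their values had been seen. The members and lists were chosen with earlier results of these data known. The 5 mesenchymal and 4 hematopoietic markers had a Ct in all 3 untreated samples for 2 and 2 assays in αTC1-6 and for 2 and 3 in βTC1 at 24 h. Alternatives were other references, filters, treatments of undetermined wells, the non-normalized table, a replicate block and leaving out each sample.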

Additional observations from a re-analysis of the deposited data

Results flagged for a closer look

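A total of 3 readings of miR-335 in βTC1 were flagged in the non-normalized table. The plant negative control of the same sample was either at a higher Ct or undetermined. The normalized table has these wells as undetermined. They were a Ct of 16.82 for miR-335-5p in the third sample, 26.12 for miR-335-3p in the first and 27.63 for miR-335-3p in the third. The plant control was undetermined in the third sample and at 30.8 in the first. The remaining βTC1 readings, 36.77 for miR-335-5p and 25.76 for miR-335-3p in the second sample, were above its plant control at 17.1. Why the tables differ in these wells was not tested.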

How the results depend on the processing

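Over 187 alternative values of the 11 tested results of miR-335, 0 passed the limma threshold (lowest adjusted p = 0.239, lowest unadjusted p = 0.0218), and 161 kept the direction of the reported value while 26 turned it. Many of the 187 could not turn it. Adjusting over both cards, changing the prior variance or leaving out a sample with a blank well leaves the estimate as it was. The 161 is therefore not a measure of how firmly the directions hold. For miR-335-5p, cytokines at 48 h gave -0.39 without normalization, -0.12 in the non-normalized table, with or without the block, and -0.0757 with the replicate block in place of 0.03. Control 48 h against 24 h gave 0.16 with median centering, 0.24 without normalization and 0.13 with the replicate block in place of -0.37. For miR-335-3p, cytokines at 48 h gave 0.42 relative to U6 and small nucleolar RNAs in place of -0.09, and the difference of the cytokine effects gave -0.0242 without normalization in place of 0.59. The arm difference at 48 h gave 0.67 in the non-normalized table and 0.41 with the replicate block in place of -0.10, and between the control times -0.0228 in the non-normalized table in place of 0.30. The block left no residual degrees of freedom for miR-335-3p and the arm difference at 48 h, so these are values with no test, and the block at 24 h gave -0.37 for 5p and -0.56 for 3p. For miR-335-3p at 48 h the block gave -0.72 and the non-normalized table -0.79 with or without it, against -0.09. The combination of that table with the block, the within-pair differences and the further arm measures were chosen after seeing the data. The block changed no other direction. The causes of these turns were not tested.

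Leaving out 1 sample at a time, miR-335-5p ranged from -0.68 to 0.12 for cytokines at 24 h, from -0.27 to 0.35 at 48 h, from -0.68 to 0.13 between the control times and from -0.10 to 0.72 for the difference of the effects. Without control sample 1 of 24 h all of these turned except that for cytokines at 48 h, which turned without control sample 3 or cytokine sample 1 or 2. MiR-335-3p ranged from -0.78 to -0.56, -0.62 to 0.45, -0.77 to -0.55 and 0.06 to 1.13, and that at 48 h turned without control or cytokine sample 3. The arm difference ranged from -0.20 to 0.39, -0.51 to 0.30 and -0.11 to 0.71, turning at 24 h without control sample 2 or 3 or cytokine sample 2, at 48 h without control sample 2 or cytokine sample 1, and between the control times without the 48 h control sample 2. The line difference at 24 h ranged from 16.95 to 17.76 cycles for 5p and from 17.21 to 17.81 for 3p. It was 8.64 and 4.11 cycles in the non-normalized table. The 8.64 for 5p places the undetermined well of βTC1 sample 1 as the normalized table does, so it is not a measured fold change. The 4.11 for 3p rests on a Ct in every βTC1 sample. The line difference was 12.45 and 12.55 with Ct above 35 set to 35, and 16.88 for 3p with the 48 h controls. A fit on assays with a Ct in every sample could not be made for 3p, nor for 5p at 48 h. Counts over all assays under the alternatives ran from 0 to 2 at 24 h, 0 to 5 at 48 h, 0 to 30 between the control times and 0 to 4 for the difference of the effects.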
